A study of Mus musculus with 10 samples.

Results

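Collagens are the most abundant proteins of the extracellular matrix, and this report describes DNA methylation at a list of 41 mouse collagen genes in lung DNA of 10 BALB/c mice. The classes below hold the genes of this list, not all genes of each collagen type. Members were chosen by gene name alone, and every 1000-bp window of the deposited table (step 500 bp) that overlapped a member's RefSeq gene span extended by 5 kb on each side was assigned to it, on mouse genome build GRCm38 (mm10). This gave 1056 of the 446336 windows of the table, in 40 of the 41 genes. Col10a1, the collagen of hypertrophic cartilage, had no window. In 1009 of the 1056 windows at least 20 cytosine calls were present in every mouse. The 10 fibrillar genes held 220 windows, the 6 basement membrane genes 252 and the 25 other genes 584, and 11 windows were shared by more than 1 collagen gene.

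The study collected lung tissue from female BALB/c mice, 8 weeks old at purchase, in 3 groups of which the deposited table holds 3, 3 and 4 mice. Saline-treated mice (n = 3) were the controls. OVA-induced mice (n = 3) received ovalbumin, 50 µg into the peritoneum with alum on days 0 and 7 and 25 µg into the nose on 4 days from day 12, which gives an allergic airway disease used as a model of asthma. DSE-treated mice (n = 4, named Herb in the labels) received the same ovalbumin course and, in addition, Descurainia sophia seed extract at 200 mg/kg by mouth on days 9 to 15, so each comparison of DSE-treated with saline-treated mice contains both agents. Methylation was read by bisulfite sequencing after capture of targeted regions (Methyl-seq), and a window's methylation level is the percentage of its cytosine calls that were read as methylated. The labels number the mice as replicates and also give each a DNA sample number, and the sample numbers run group by group. Mice were taken as the replicates, so that the p-values of limma and of the exact permutation tests below measure the spread between these animals. The test of pooled calls that defines the called windows does not measure that spread.

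Collagen chains fold in threes into a triple helix. Fibrillar collagens (types I, II, III, V, XI, XXIV and XXVII) assemble into the cross-striated fibrils that give lung interstitium and airway walls their tensile strength, whereas type IV collagen forms the sheet-like network of basement membranes under airway epithelium, alveoli and vessels, where types XV and XVIII are also found. Other collagens form beaded filaments (type VI), decorate fibrils (the FACIT group), span the cell membrane, or build anchoring fibrils and hexagonal nets (types VII and VIII). Collagen is laid down below the airway epithelium in asthma, which is why these genes are read in models of airway remodelling. Methylation of CpG dinucleotides is usually low at active or CpG-rich start sites and high within gene bodies.

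Calls per mouse over the whole table ranged from 306656737 to 410836272, and over the collagen windows from 624202 to 830817, with a median of 321.5 to 454.0 calls per collagen window. Replicates differed from each other beyond sampling noise in every pair of a group. The mean level of the collagen windows was 49.5% to 50.1% in saline-treated, 50.7% to 51.9% in OVA-induced and 50.7% to 52.0% in DSE-treated mice. Over all windows of the table the mean shifted in the same way, at 50.9% to 51.5%, 51.9% to 52.8% and 51.7% to 52.8% in the same order. Calls of residual methylation on mitochondrial DNA, a readout of incomplete conversion, were 1.33% to 1.85% over the 10 mice. In 26474 CpG-rich windows with little methylation (at least 40 CpGs and under 5%), the mean was 1.63% to 1.69% in saline-treated, 1.63% to 1.80% in OVA-induced and 1.81% to 1.99% in DSE-treated mice. Lung DNA comes from many cell types, and a change in the mixture of cells cannot be told apart from a change within cells. Promoters of a leukocyte list (16 of 18 genes measured, among them Ptprc and Itgb2) averaged 50.4% to 52.0% in saline-treated, 41.9% to 46.1% in OVA-induced and 42.5% to 46.0% in DSE-treated mice, and 8 of the 16 fell in OVA-induced against saline-treated mice by limma, where 2.76% of all promoters fell. Epithelial promoters (8 of 10 genes measured, with the lung markers Nkx2-1 and Sftpc on the list) averaged 29.3% to 29.9%, 30.6% to 32.5% and 31.8% to 33.1% in the same order. The part of the cell mixture in the collagen values was not tested.

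Promoters of the collagen genes differed widely in CpG content, and the sequences show the range. Of the 41 genes, 32 had an entry in the RefSeq promoter set for GRCm38.p6, in which the median of all 32851 promoters was 6 CpGs in the 250 bases before the start site. The following are those 250 bases for the genes on which the promoter results turn, written 5′ to 3′ on the strand of the gene with each CpG in capitals.
Col5a1 promoter (chr2:27886175-27886424, plus strand): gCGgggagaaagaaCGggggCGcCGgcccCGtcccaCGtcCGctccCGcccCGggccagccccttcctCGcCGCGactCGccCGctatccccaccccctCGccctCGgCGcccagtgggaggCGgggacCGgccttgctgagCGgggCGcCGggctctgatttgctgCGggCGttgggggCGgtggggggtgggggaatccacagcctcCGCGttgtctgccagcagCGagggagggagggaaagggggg
Col20a1 promoter (chr2:180986285-180986534, plus strand): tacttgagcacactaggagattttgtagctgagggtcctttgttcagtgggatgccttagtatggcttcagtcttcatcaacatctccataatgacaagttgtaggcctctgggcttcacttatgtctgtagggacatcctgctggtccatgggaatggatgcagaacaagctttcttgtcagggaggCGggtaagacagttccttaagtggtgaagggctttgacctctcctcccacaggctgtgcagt
Col1a2 promoter (chr6:4505368-4505617, plus strand): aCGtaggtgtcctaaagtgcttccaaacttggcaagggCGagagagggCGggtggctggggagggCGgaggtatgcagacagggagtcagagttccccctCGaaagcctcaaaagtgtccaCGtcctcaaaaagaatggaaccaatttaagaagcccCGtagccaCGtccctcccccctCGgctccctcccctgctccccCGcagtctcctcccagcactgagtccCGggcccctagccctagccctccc
Col7a1 promoter (chr9:108953336-108953585, plus strand): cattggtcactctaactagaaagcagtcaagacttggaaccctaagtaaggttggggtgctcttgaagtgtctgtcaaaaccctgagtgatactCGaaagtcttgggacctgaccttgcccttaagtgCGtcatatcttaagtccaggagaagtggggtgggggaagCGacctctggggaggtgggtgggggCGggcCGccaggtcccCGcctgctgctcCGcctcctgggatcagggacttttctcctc
Col18a1 promoter (chr10:77166531-77166780, minus strand): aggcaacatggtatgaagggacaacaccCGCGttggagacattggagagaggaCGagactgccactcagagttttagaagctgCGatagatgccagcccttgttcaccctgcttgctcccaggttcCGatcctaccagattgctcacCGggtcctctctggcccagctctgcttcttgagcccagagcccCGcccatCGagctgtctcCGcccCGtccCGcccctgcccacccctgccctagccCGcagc
Col18a1 promoter (chr10:77113706-77113955, minus strand): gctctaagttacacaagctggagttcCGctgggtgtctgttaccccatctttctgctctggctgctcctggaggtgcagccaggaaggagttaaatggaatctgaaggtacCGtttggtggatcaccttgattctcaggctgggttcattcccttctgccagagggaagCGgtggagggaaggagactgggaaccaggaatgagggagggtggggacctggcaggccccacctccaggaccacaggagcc
Col5a1 had 28 CpGs, as many or more than 93.2% of all promoters, and Col20a1 had 1, as many or more than 18.8%. Col1a2 had 11 CpGs, Col7a1 had 7, and the upstream and downstream start sites of Col18a1 had 12 and 3.

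**Figure D1:**
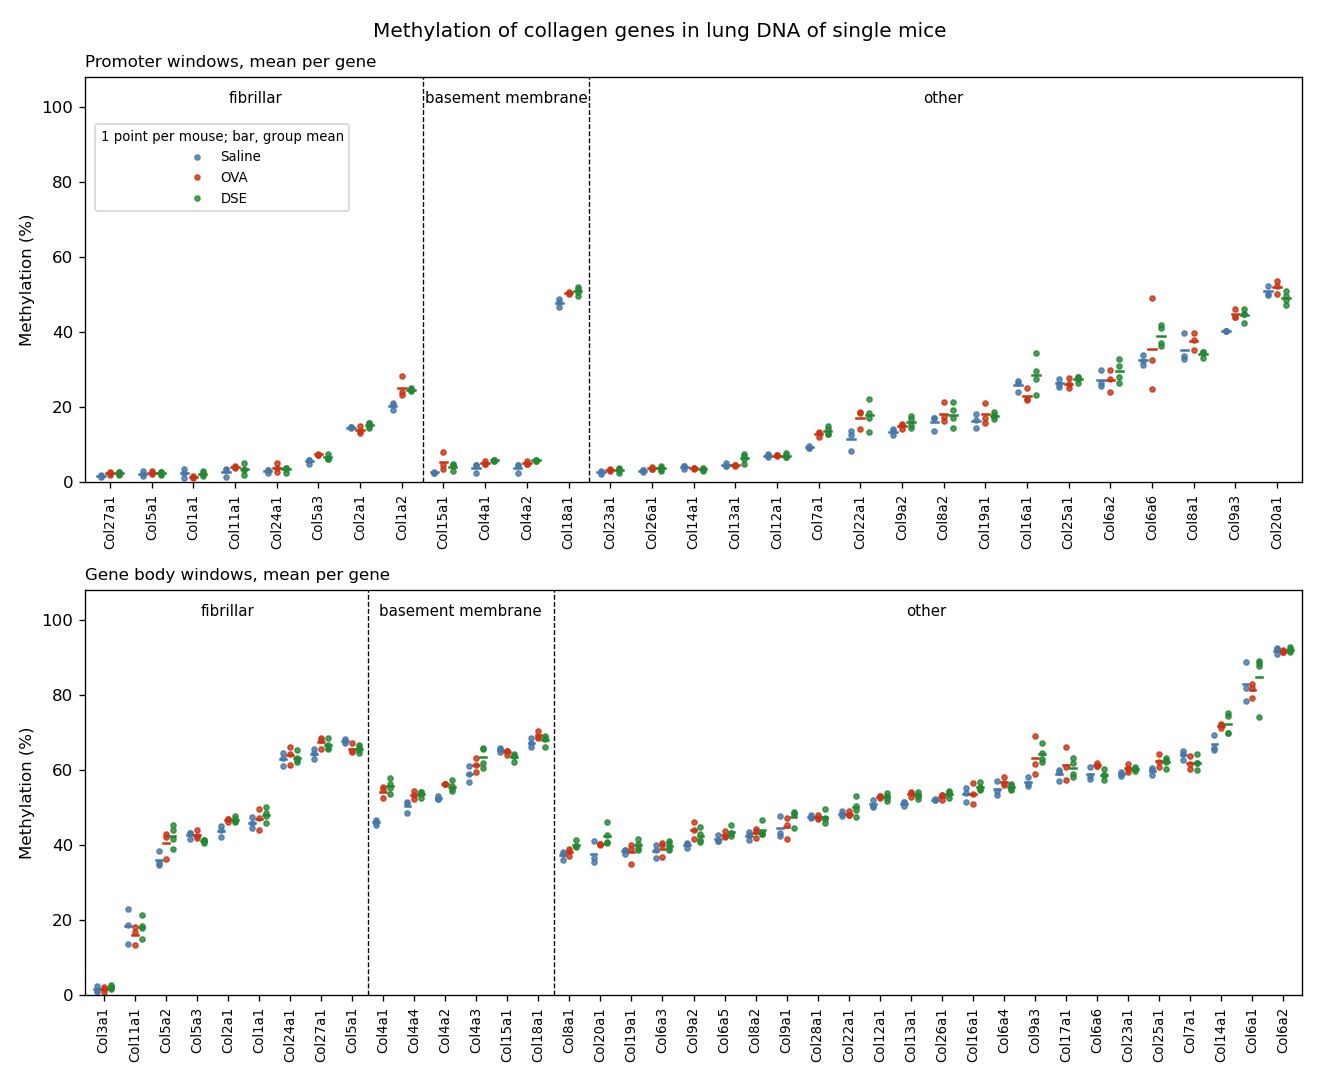
Methylation level (%) of promoter windows (top, 29 genes) and gene body windows (bottom, 39 genes), as the mean over a gene's windows, with 1 point per mouse and a bar at the group mean. Genes are ordered within the fibrillar, basement membrane and other classes by their level in saline-treated mice, and most fibrillar promoters lie under 10% while Col18a1, Col9a3 and Col20a1 lie above 40% in saline-treated mice.

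Promoters, defined as windows reaching within 1000 bp of a RefSeq start site, were covered by 135 windows in 29 genes. In saline-treated mice, 15 of the 29 promoters were under 10%, 9 were between 10% and 30%, and 5 were at 30% or more. Fibrillar collagen promoters averaged 6.62% ± 0.32 (SD over 3 mice, 8 genes), basement membrane promoters 14.6% ± 0.42 (4 genes) and promoters of the other collagens 19.3% ± 0.64 (17 genes). The basement membrane mean rested on Col18a1, since the type IV promoters with windows, those shared by Col4a1 and Col4a2, averaged 3.92%. No test was made between classes, because their genes are not replicates.

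Among the fibrillar genes, Col27a1, a collagen of cartilage and other fibrils, had the lowest promoter level at 1.69% ± 0.30 in saline-treated mice. Col5a1 and Col1a1, chains that take part in the type V and type I fibrils of most connective tissue, stood at 2.32% ± 0.67 and 2.51% ± 1.18. Col1a2, the partner chain of Col1a1 in type I collagen, was at 20.4% ± 0.97, the highest of the 8 fibrillar promoters. The levels within it ran from 1.54% in the window ending at the start of the gene to 58.6% in the window farthest inside it. Col3a1 and Col5a2, the other main fibril chains of lung, had no promoter window. Outside the fibrillar class, Col23a1, a transmembrane collagen, and Col15a1, a basement membrane collagen that carries a cleavable endostatin-like domain, were among the 5 lowest at 2.65% ± 0.40 and 2.66% ± 0.21.

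The 5 highest promoters were Col20a1 (50.9% ± 1.32), Col18a1 (47.9% ± 1.04), Col9a3 (40.3% ± 0.08), Col8a1 (35.4% ± 3.84) and Col6a6 (32.6% ± 1.28). Col18a1, the precursor of endostatin, has a pair of start sites in RefSeq. Windows at the upstream site (chr10:77166530, minus strand) averaged 30.3% ± 0.57 and those at the downstream site (chr10:77113705) averaged 65.5% ± 1.54, and the stretch before the upstream site holds 12 CpGs against 3 before the downstream site. Over the 28 distinct promoters, the saline level and the highest CpG count of a window had a Spearman's rho of −0.42 and a Pearson's r of −0.40, given as a description of genes that share the same 3 libraries. Low promoters had between 30 and 104 CpGs in their richest window and those at 30% or more had 7 to 66, so the ranges overlapped.

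**Figure D2:**
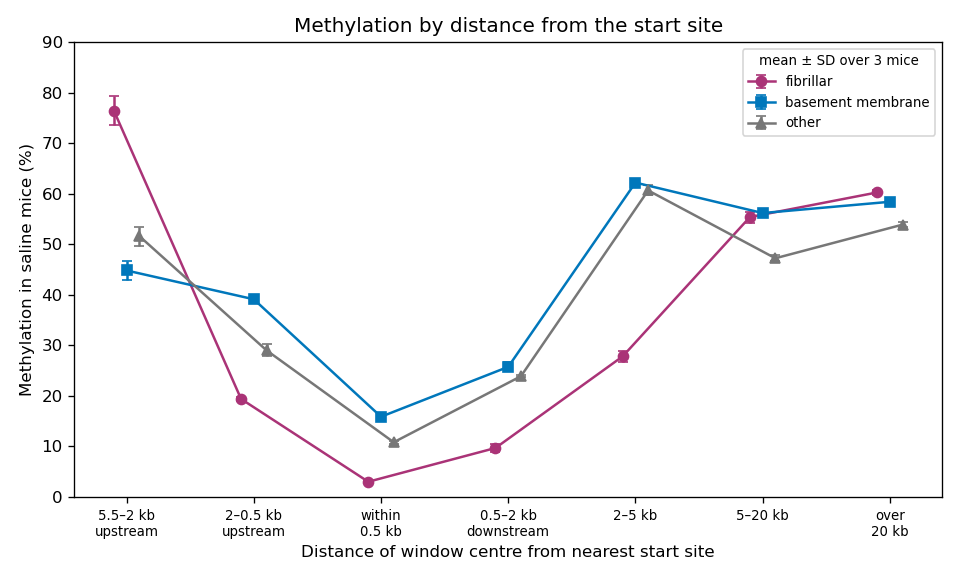
Mean methylation level (%, y axis) of collagen windows in saline-treated mice by distance of the window centre from the nearest start site (x axis, bins), with error bars of SD over 3 mice. Each class is lowest within 0.5 kb of the start site, at 3.01% for fibrillar, 15.9% for basement membrane and 10.8% for other collagens.

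Gene bodies were covered by 819 windows in 39 genes and stood far above the promoters. Fibrillar gene bodies averaged 42.7% ± 0.77 in saline-treated mice (9 genes), basement membrane gene bodies 56.8% ± 0.47 (6 genes) and those of the other collagens 53.3% ± 0.50 (24 genes). By distance from the start site, fibrillar windows stayed low for longer as a class mean. At 2 to 5 kb downstream they averaged 27.8% ± 1.09 (19 windows of 7 genes). Basement membrane windows averaged 62.2% ± 0.43 there (10 windows of 3 genes) and those of other collagens 60.7% ± 0.98 (26 windows of 11 genes). Col4a1 did not follow its class, as its windows centred 4326, 3826, 3326 and 2826 bp downstream were at 28.6%, 34.3%, 37.5% and 19.1%. Beyond 20 kb the 3 classes, in the order fibrillar, basement membrane and other, lay at 60.3%, 58.4% and 53.9%.

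Single gene bodies spread more widely than the classes. Col3a1, the chain of type III collagen, was at 1.64% ± 0.84 over its 2 windows, and Col11a1, a minor fibril chain, at 18.4% ± 4.63 over 6. Col1a1 was at 46.0% ± 1.34, Col5a2 at 36.2% ± 2.02 and Col5a1 at 67.8% ± 0.51. Col1a2 had no gene body window with enough calls in every mouse. In type VI, whose α1, α2 and α3 chains form one beaded filament, Col6a2 (91.9% ± 0.79) and Col6a1 (83.0% ± 5.40) had the highest gene bodies of all collagens whereas Col6a3 was at 38.5% ± 1.67. The basement membrane genes ranged from 46.1% ± 0.62 in Col4a1 over 50.5% ± 1.67 in Col4a4, 52.7% ± 0.44 in Col4a2 and 59.0% ± 2.22 in Col4a3 to 65.5% ± 0.48 in Col15a1 and 67.3% ± 1.18 in Col18a1. In that order the levels of the 3 saline-treated mice of a gene did not overlap with those of its neighbours, though the gap from Col4a4 to Col4a2 (51.5% to 52.4%) and that from Col15a1 to Col18a1 (66.0% to 66.1%) were smaller than the spread within Col4a4 and Col18a1.

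The first comparison, of OVA-induced with saline-treated mice, asks where methylation of collagen genes differs after induction of the airway disease. Of the 55 windows called higher, 26 lay in basement membrane genes, among them the head-to-head pair Col4a1 and Col4a2, the ubiquitous chains of type IV collagen, 27 in the other collagens and 2 in fibrillar genes. Fibrillar genes had 7 windows called lower, 3.2% of theirs against 2.56% of all windows, while their median difference of 0.73 percentage points equalled that of all windows. A window was called a differentially methylated region (DMR) when the calls pooled over the mice of both groups differed by at least 10 percentage points and a likelihood-ratio test of a logistic model gave an adjusted p under 0.01 over all windows of the table. This test counts calls and leaves out the spread between mice.

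In OVA-induced mice 55 of 1028 collagen windows were hypermethylated and 21 hypomethylated, in 35 and 14 separate regions. Of all windows tested, 4.75% were hypermethylated and 2.56% hypomethylated, so the collagen shares of 5.35% and 2.04% were close to the background. The median difference was 0.92 percentage points over the collagen windows and 0.73 over all windows. Every mouse of one group was above every mouse of the other in 70 of the 76 DMRs, and the same was true of 88.0% of all DMRs. A test that does take the spread between mice into account (limma on log2 ratios of methylated to unmethylated calls, all 10 mice, adjusted p under 0.05 and the same difference) called 16 collagen windows higher and 12 lower, and 2.56% of all windows in either direction. This fit was chosen after seeing the data and gives the limma p-values of windows below, whereas limma on the 6 mice of these groups alone called 0 windows, collagen or other, with 56 higher and 23 lower collagen windows of that size at an unadjusted p under 0.05.

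All counts here stand beside 4.75% of all windows hypermethylated and 2.56% hypomethylated. By class, 26 of 248 basement membrane windows were hypermethylated (10.5%) and 8 hypomethylated (3.23%). Of these 26, 18 lay in Col4a1 and Col4a2. The other collagens had 27 and 6 of 561, and the fibrillar genes 2 and 7 of 219. By position, 3 of 134 promoter windows (2.24%), 44 of 795 gene body windows (5.5%) and 13 of 104 flanking windows (12.5%) were hypermethylated. In the same order 0, 19 and 2 were hypomethylated. These positions are not exclusive. Hypermethylated windows shared by Col4a1 and Col4a2, such as chr8:11308501-11309500, counted both as gene body of Col4a1 and as flank of Col4a2. The flanking share of 12.5% therefore repeats in part the gains within Col4a1 and Col4a2. FACIT collagens had 9 hypermethylated of 174 windows (5.17%) and 0 hypomethylated, and type VI collagens 2 (2.41%) and 0 of 83. Windows called in both directions lay in Col4a1, Col7a1, Col13a1, Col15a1, Col18a1, Col26a1 and Col28a1. These counts are descriptions of overlapping windows, and neighbouring windows share reads.

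**Figure D3:**
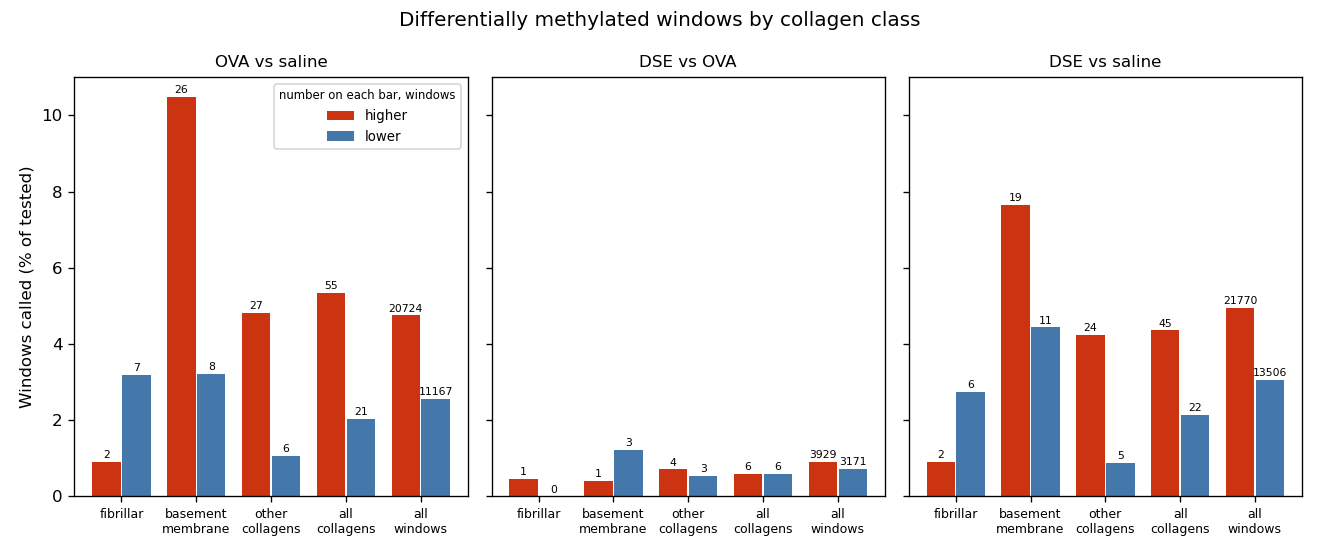
Share of tested windows called as DMRs (y axis, %) in each comparison, for the 3 collagen classes, all collagen windows and all windows of the table, with red bars for higher and blue bars for lower and the number of windows on each bar. In OVA vs saline the basement membrane bar for higher windows reaches 10.5%, against 4.75% for the table, and 18 of its 26 windows lie in Col4a1 and Col4a2.

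Windows of the Col4a1 and Col4a2 locus accounted for 18 of the 55 hypermethylated collagen windows. Of 68 windows tested in these genes, 18 were hypermethylated (26.5%), with gains from 10.2 to 20.3 percentage points, and 1 was hypomethylated, whereas 37 of the 960 other collagen windows (3.85%) were hypermethylated. Many of the 18 overlap, and some pairs held identical levels, such as chr8:11405001-11406000 and chr8:11405501-11406500, so they are fewer separate measurements. Limma over all 10 mice called 9 windows higher in the whole basement membrane class. Col4a1 and Col4a2 are transcribed in opposite directions from start sites at chr8:11312826 (minus strand) and chr8:11312805 (plus strand), so that they share their promoter windows. The 300-base stretches below hold the most CpGs found outside exons in a window of Col4a1 intron 1 and in one of Col4a2 intron 3, on the strand of each gene, with CpGs in capitals.
Col4a1 window (chr8:11308831-11309130, minus strand): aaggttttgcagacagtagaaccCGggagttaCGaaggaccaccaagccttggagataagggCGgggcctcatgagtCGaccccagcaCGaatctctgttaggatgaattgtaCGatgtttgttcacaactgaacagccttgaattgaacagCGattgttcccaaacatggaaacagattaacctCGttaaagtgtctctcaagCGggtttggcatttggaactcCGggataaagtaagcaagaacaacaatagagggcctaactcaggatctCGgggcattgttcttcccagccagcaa
Col4a2 window (chr8:11314668-11314967, plus strand): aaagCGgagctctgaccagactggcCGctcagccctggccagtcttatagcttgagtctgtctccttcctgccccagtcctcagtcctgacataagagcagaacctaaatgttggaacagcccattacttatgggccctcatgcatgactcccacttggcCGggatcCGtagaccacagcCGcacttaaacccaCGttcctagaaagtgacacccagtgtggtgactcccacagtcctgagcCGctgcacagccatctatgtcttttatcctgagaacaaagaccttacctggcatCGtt
They contain 11 and 8 CpGs.

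In the window of Col4a1 intron 1 that includes the first of these stretches (chr8:11308501-11309500, 2603 to 3685 calls per mouse), the levels were 35.6%, 32.6% and 34.6% in the saline-treated, 46.1%, 53.4% and 50.6% in the OVA-induced and 48.7%, 51.4%, 49.0% and 53.4% in the DSE-treated mice. Every OVA-induced and every DSE-treated mouse was higher than every saline-treated mouse, while the ranges of OVA-induced and DSE-treated mice overlapped. This window was outside the naming rule and was added after its values were seen. The pooled gain over saline was 15.7 percentage points in OVA-induced mice (adjusted p = 0.0258 by limma) and 16.2 in DSE-treated mice (adjusted p = 0.0128 by limma). With 3 mice against 3, the exact permutation test cannot go below p = 0.1, the value it gave here, and with 3 against 4 not below 0.0571.

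At the start sites themselves no DMR was called. The 2 windows that contain both start sites were at 1.25% ± 0.21 and 1.34% ± 0.59 in saline-treated, 1.99% ± 0.06 and 1.63% ± 0.26 in OVA-induced and 1.57% ± 0.38 and 1.84% ± 0.35 in DSE-treated mice. A window on the Col4a2 side of them (chr8:11313501-11314500) was at 7.31%, 4.72% and 6.73% in saline-treated, 11.1%, 12.4% and 9.67% in OVA-induced and 10.8%, 11%, 11.4% and 14.1% in DSE-treated mice, a separation without overlap that was too small for a DMR (adjusted p = 0.0492 by limma for OVA-induced mice). Farther into Col4a1, the window at chr8:11299001-11300000 had levels of 24.2%, 40.5% and 31.1% in saline-treated, 50.4%, 56.9% and 43.8% in OVA-induced and 56.0%, 57.0%, 61.4% and 58.8% in DSE-treated mice. Here too the saline-treated mice were below all others, and the pooled gain was 17.9 percentage points in OVA-induced (adjusted p = 0.0575 by limma) and 26.1 in DSE-treated mice (adjusted p = 0.0149 by limma).

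On the Col4a2 side, the window in intron 3 (chr8:11314001-11315000, 135 to 285 calls) was at 24.4%, 12.7% and 11.8% in saline-treated, 38.7%, 36.2% and 31.0% in OVA-induced and 39.7%, 26.5%, 34.8% and 48.8% in DSE-treated mice. The groups of saline-treated and OVA-induced mice did not overlap, with a pooled gain of 20.3 percentage points (adjusted p = 0.064 by limma). Intron 11 of Col4a2 (chr8:11405001-11406000) gained 17.6 percentage points, from 37.2% ± 2.80 to 53.8% ± 9.77 (adjusted p = 0.0823 by limma). These 2 windows therefore passed the test of pooled calls but not limma.

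**Figure D4:**
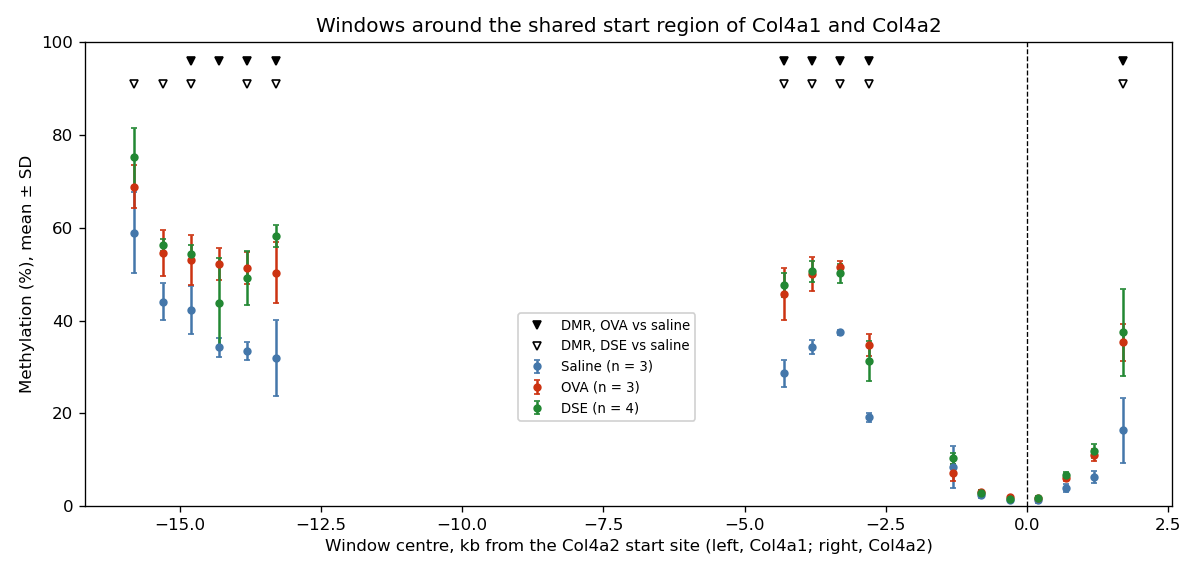
Methylation level (%, y axis, mean ± SD) of windows within 17 kb of the shared start region of Col4a1 and Col4a2, against distance of the window centre from the Col4a2 start site in kb (x axis), with triangles for DMRs. Windows at the start sites are near 2% in all groups, and those in Col4a1 intron 1 are higher in OVA-induced and DSE-treated mice than in saline-treated mice.

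Summed over a whole gene body, Col4a1 was the collagen gene with the firmest difference. Its levels were 42.7%, 42.7% and 42.2% in saline-treated, 49.7%, 54.3% and 53.8% in OVA-induced and 51.2%, 55.4%, 50.6% and 55.5% in DSE-treated mice. All 7 ovalbumin-treated mice were above all 3 saline-treated mice. On the log2 scale of the ratio of methylated to unmethylated calls, the gain was 0.58 ± 0.10 (SE, adjusted p = 0.0115 by limma over all genes) in OVA-induced mice, and the call held under every alternative tried. Col4a2 was at 57.5%, 58.7% and 56.4% in saline-treated and 58.8%, 60.7% and 60.9% in OVA-induced mice, which do not overlap, and its log2 difference of 0.16 ± 0.07 did not pass (adjusted p = 0.155 by limma). With windows weighted equally instead of by their calls, both Col4a1 and Col4a2 passed. An endothelial list (8 of 8 genes measured) also had higher gene bodies, at 51.4% to 53.2% in saline-treated, 57.1% to 58.3% in OVA-induced and 54.5% to 58.4% in DSE-treated mice, with 5 of 8 genes higher and 1 lower in OVA-induced mice, beside 10.7% and 4.3% of all genes, and its part in the Col4a1 result was not tested.

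In the other gene bodies, Col9a3, a chain of the fibril-associated type IX collagen of cartilage, was the only further call, and it rose from 53.7% on average to 61.9% of pooled calls (log2 gain 0.48 ± 0.11, adjusted p = 0.0266 by limma). This call was lost without saline-treated mouse 2 or 3 or OVA-induced mouse 2 or 3, with gains of 0.43 to 0.49. Thus 2 of 39 gene bodies rose and 0 fell by limma, against 10.7% and 4.3% of all 17010 genes, and at an unadjusted p under 0.05 these counts were 4 and 2. The median log2 difference was 0.09 over the collagen gene bodies and 0.11 over all genes.

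In promoters, 4 of 29 collagen genes rose in OVA-induced mice and 0 fell by limma, against 3.26% and 2.76% of 19140 genes, and at an unadjusted p under 0.05 it was 8 and 0. Without single mice the number that rose was 1 (saline-treated mouse 2 or 3), 2 (OVA-induced mouse 1) or 0 (OVA-induced mouse 2 or 3), and without saline-treated mouse 1 a single promoter fell. The median log2 difference was 0.15 over the collagen promoters and −0.02 over all genes. Col4a1 and Col4a2 share their promoter windows and count as 1 measurement, with 4.09%, 2.49% and 3.51% in saline-treated, 5.13%, 5.87% and 4.8% in OVA-induced and 5.34%, 5.70%, 5.27% and 6.21% in DSE-treated mice. The saline-treated mice lay below all others, and the log2 gain in OVA-induced mice was 0.70 ± 0.17 (adjusted p = 0.0406 by limma). It fell short of the threshold without saline-treated mouse 2 or 3 or any 1 of the OVA-induced mice, with gains of 0.49 to 0.77. With windows weighted equally, the Col4a1 and Col4a2 promoter (adjusted p = 0.243 by limma) and Col5a3 (adjusted p = 0.0596 by limma) did not pass, and 3 collagen promoters did, Col1a2, Col7a1 and Col9a3, against 4.21% of all genes.

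Col7a1, the collagen of the anchoring fibrils that hold epithelium to the underlying matrix, had promoter levels of 8.15%, 8.72% and 7.92% in saline-treated, 11.6%, 12.2% and 12.9% in OVA-induced and 13.3%, 13.4%, 11.6% and 14.1% in DSE-treated mice. Saline-treated mice were again lowest without overlap. The log2 gain was 0.62 ± 0.11 in OVA-induced mice (adjusted p = 0.0159 by limma), and the call was lost without OVA-induced mouse 2 (0.63) or 3 (0.58). Col5a3, a minor chain of type V collagen that the naming rule did not select and that is given here because its values were seen, rose from 4.55%, 5.56% and 5.55% to 7.46%, 7.35% and 7.20% (log2 gain 0.53 ± 0.12, adjusted p = 0.0346 by limma). Its call was lost on leaving out any 1 of the 6 mice compared, with gains of 0.43 to 0.58. Fibroblast and smooth muscle promoters (8 of 10 genes measured) averaged 13.9% to 15.1% in saline-treated, 16.1% to 18.8% in OVA-induced and 17.2% to 19.5% in DSE-treated mice. By limma 2 of these 8 were higher and 0 lower in OVA-induced mice, beside 3.26% and 2.76% of all promoters, and their part in these promoter results was not tested.

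The window with the largest gain in OVA-induced mice lay downstream of Col8a2, a collagen of the membrane under the corneal endothelium (chr4:126315501-126316500, within Adprhl2). Its levels were 43.8%, 12.9% and 42.9% in saline-treated and 47.5%, 56.5% and 66.7% in OVA-induced mice, from only 31 to 96 calls. The pooled gain of 20.3 percentage points lost its call without OVA-induced mouse 3 (14.2) or saline-treated mouse 2 (15.1). Upstream of Col7a1, in a window inside the neighbouring gene Uqcrc1 (chr9:108948501-108949500, 400 to 649 calls), levels were 32.8%, 37.8% and 34.5% in saline-treated, 48.8%, 57.9% and 52.2% in OVA-induced and 42.4%, 48%, 47.9% and 57.9% in DSE-treated mice. This gain of 18.1 percentage points separated saline-treated from all other mice (adjusted p = 0.0441 by limma).

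Losses were fewer, with 7 windows in fibrillar, 8 in basement membrane and 6 in other collagens, the last in Col7a1, Col13a1, Col26a1 and Col28a1, a von Willebrand factor A domain collagen found in nerve. The next stretches show the most CpG-rich 300 bases outside exons of the Col28a1, Col15a1 and Col5a1 windows that lost methylation and of the Col7a1 upstream window that gained it, on the strand of each gene with CpGs in capitals.
Col28a1 window (chr6:8068094-8068393, minus strand): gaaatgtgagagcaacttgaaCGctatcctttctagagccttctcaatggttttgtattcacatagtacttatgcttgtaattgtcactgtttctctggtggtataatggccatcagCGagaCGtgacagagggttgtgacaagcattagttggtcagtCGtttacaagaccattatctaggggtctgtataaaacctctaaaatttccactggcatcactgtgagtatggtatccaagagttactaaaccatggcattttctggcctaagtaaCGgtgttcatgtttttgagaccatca
Col15a1 window (chr4:47303516-47303815, plus strand): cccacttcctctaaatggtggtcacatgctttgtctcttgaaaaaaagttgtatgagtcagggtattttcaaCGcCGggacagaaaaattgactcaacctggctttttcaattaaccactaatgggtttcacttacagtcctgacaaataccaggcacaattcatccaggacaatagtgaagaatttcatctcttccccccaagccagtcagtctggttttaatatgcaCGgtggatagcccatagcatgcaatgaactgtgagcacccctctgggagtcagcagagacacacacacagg
Col5a1 window (chr2:28000143-28000442, plus strand): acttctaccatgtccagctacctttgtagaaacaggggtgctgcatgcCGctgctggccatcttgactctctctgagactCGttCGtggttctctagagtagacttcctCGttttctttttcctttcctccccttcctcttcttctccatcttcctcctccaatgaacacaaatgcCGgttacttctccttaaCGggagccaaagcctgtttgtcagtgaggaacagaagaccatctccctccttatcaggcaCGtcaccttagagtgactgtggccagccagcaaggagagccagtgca
Col7a1 window (chr9:108948639-108948938, plus strand): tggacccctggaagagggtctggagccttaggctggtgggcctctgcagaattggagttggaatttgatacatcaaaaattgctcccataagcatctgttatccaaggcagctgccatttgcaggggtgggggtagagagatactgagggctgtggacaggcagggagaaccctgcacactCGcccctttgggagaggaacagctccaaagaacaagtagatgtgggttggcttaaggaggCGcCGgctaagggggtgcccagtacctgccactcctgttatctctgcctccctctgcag
They hold 5, 3, 7 and 3 CpGs, a lower density than at the CpG-rich promoters above.

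In Col28a1 intron 25 (chr6:8067501-8068500, 80 to 391 calls), levels were 55.4%, 63.2% and 55.5% in saline-treated, 38.8%, 33.6% and 36.4% in OVA-induced and 41.7%, 44.8%, 38.1% and 34.8% in DSE-treated mice. The saline-treated mice were higher than every ovalbumin-treated mouse, by 22 percentage points of pooled calls against OVA-induced mice (adjusted p = 0.0253 by limma). Exon 34 of Col15a1 (chr4:47303501-47304500, 465 to 702 calls) was at 64.0%, 65.6% and 60.3% in saline-treated, 47.4%, 44.1% and 47.1% in OVA-induced and 51.1%, 44.2%, 49.7% and 41.1% in DSE-treated mice. It fell by 16.9 percentage points in OVA-induced mice (adjusted p = 0.0302 by limma), again without overlap.

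A window 1336 bp downstream of Col15a1 (chr4:47314501-47315500) went from 75.7% ± 6.38 in saline-treated to 60.3% ± 5.82 in OVA-induced mice and 54.9% ± 2.46 in DSE-treated mice (adjusted p = 0.0642 by limma for OVA-induced mice). Col24a1, a fibrillar collagen of bone and cornea, fell in intron 1 (chr3:145294501-145295500) from 68.0% ± 2.82 to 54.4% ± 1.04 (adjusted p = 0.0454 by limma), and the call of a DMR was lost without saline-treated mouse 1 (−12.2 percentage points). Col5a1 intron 37 (chr2:28000001-28001000, 949 to 1327 calls) was at 71.3%, 73.1% and 66.4% in saline-treated, 58.8%, 58.4% and 54.7% in OVA-induced and 55.3%, 52.8%, 56.5% and 54.8% in DSE-treated mice. The saline-treated mice of this window did not overlap with the others, and the loss in OVA-induced mice was 12.6 percentage points (adjusted p = 0.0333 by limma).

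**Figure D5:**
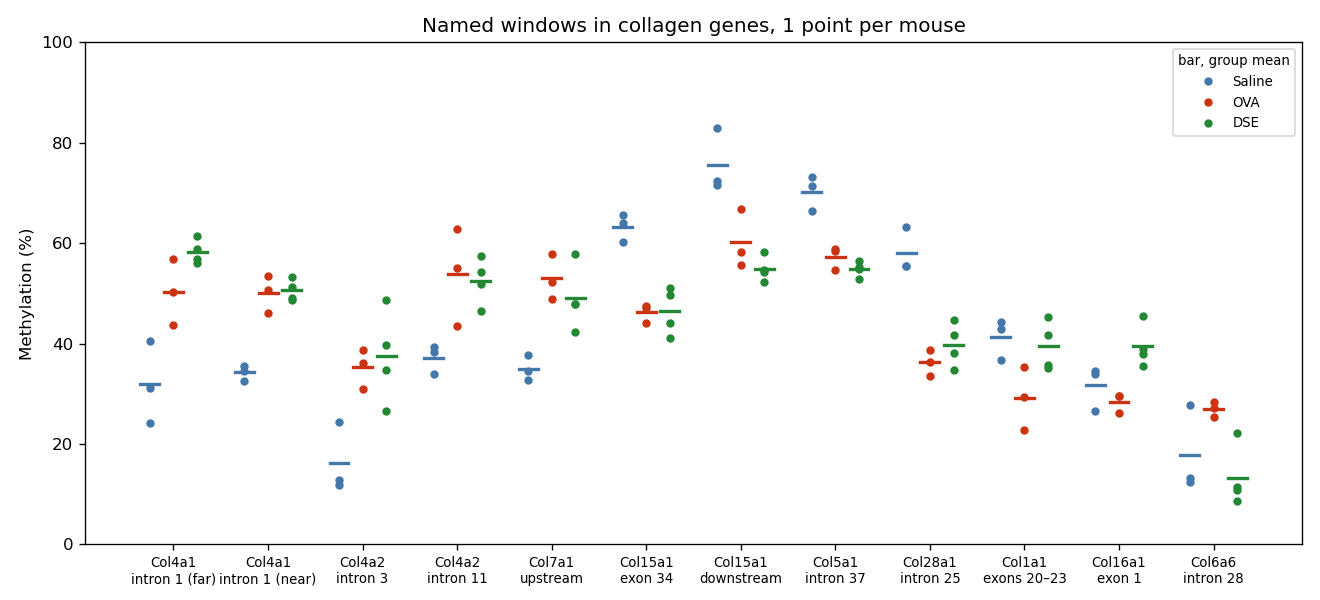
Methylation level (%, y axis) of 12 collagen windows named by gene and position (x axis), with 1 point per mouse and a bar at each group mean. In the Col4a1, Col4a2 and Col7a1 windows saline-treated mice lie lowest, in the Col15a1, Col5a1 and Col28a1 windows they lie highest, and OVA-induced and DSE-treated mice are close together in most of these.

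The second comparison, of DSE-treated with OVA-induced mice, asks whether the extract was followed by a different methylation level under the same ovalbumin course. Few collagen windows differed. Of 1030 windows, 6 were hypermethylated and 6 hypomethylated in 5 and 4 regions of 8 genes, which is 0.583% in each direction against 0.898% and 0.725% of all windows. The median difference was −0.02 percentage points, and −0.04 over all windows. The groups were separated mouse by mouse in 7 of the 12, and in 75.1% of all DMRs. The limma test over all 10 mice called 0 collagen windows by the same difference, and 0.194% of all windows, while 7 higher and 5 lower collagen windows of that size had an unadjusted p under 0.05. The count of hypermethylated windows fell to 3 without DSE-treated mouse 3 or OVA-induced mouse 1, and that of hypomethylated windows rose to 10 without DSE-treated mouse 2 or OVA-induced mouse 2.

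At Col4a1 and Col4a2 the DSE-treated mice stayed near the OVA-induced mice. The Col4a1 gene body differed by 0.03 ± 0.10 on the log2 scale (adjusted p = 0.896 by limma) and their shared promoter by 0.10 ± 0.16 (adjusted p = 0.704 by limma), which leaves room for a difference in either direction. In the 18 windows of these genes that were hypermethylated in OVA-induced mice, DSE minus OVA differences ran from −7.95 to 8.12 percentage points, and 0 were called. The largest fall was in Col4a1 intron 1 (chr8:11298001-11299000), from 52.25% ± 3.42 in OVA-induced to 43.9% ± 9.51 in DSE-treated mice. Saline-treated mice were at 34.2% ± 1.97 there. The 1 window of these genes that was called here, in Col4a1 intron 2, had been lower in OVA-induced mice and is given below.

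Col22a1, a FACIT collagen of tissue junctions, held 2 of the named hypermethylated windows. One, 16774 bp upstream of the curated transcript and inside the longer predicted span of the gene (chr15:72051001-72052000, 37 to 86 calls), was at 73.9%, 78.3% and 81.2% in saline-treated, 56.1%, 62.2% and 67.4% in OVA-induced and 79.0%, 76.7%, 71.8% and 87.9% in DSE-treated mice. OVA-induced mice were lowest without overlap, but the call of 16.5 percentage points was lost without DSE-treated mouse 1 (16.3) or 4 (13.9) or OVA-induced mouse 1 (13.5) or 2 (16.6). In exon 17 (chr15:71944001-71945000) the gain of 10.2 percentage points was lost without DSE-treated mouse 2, 3 or 4 or any 1 OVA-induced mouse, with values of 9.12 to 10.3.

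Col16a1, another FACIT collagen, gained 10.6 percentage points in exon 1 (chr4:130048001-130049000), from 29.6%, 26.1% and 29.6% in OVA-induced to 39.0%, 37.9%, 45.5% and 35.6% in DSE-treated mice. These groups did not overlap, but leaving out DSE-treated mouse 3 (9.03) or OVA-induced mouse 2 (9.43) took the difference under 10. Col6a6, a type VI chain, fell by 13.9 percentage points in intron 28 (chr9:105719501-105720500), from 28.3%, 25.3% and 27.2% in OVA-induced to 10.9%, 22.2%, 8.72% and 11.4% in DSE-treated mice, and here saline-treated mice were at 27.7%, 12.5% and 13.1%. Saline-treated mouse 1 was thus close to the OVA-induced mice and the other two to the DSE-treated mice. By limma the adjusted p of these Col22a1, Col16a1 and Col6a6 windows was between 0.178 and 0.261.

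For whole gene bodies, Col5a2, the second chain of type V collagen, was the only one of 39 collagen genes to differ between DSE-treated and OVA-induced mice, against 2.38% of genes higher and 1.66% lower in all. Pooled calls gave 24.7%, 26.0% and 24.7% in saline-treated, 23.4%, 25.4% and 26.0% in OVA-induced and 38.9%, 32.6%, 33.5% and 37.8% in DSE-treated mice, a log2 gain of 0.74 ± 0.11 (adjusted p = 0.0111 by limma). Both the levels of single windows and the spread of reads over windows differed. The windows at chr1:45431501-45432500 and chr1:45432001-45433000 held identical levels. They rose from 7.65% ± 1.00 in OVA-induced (median of 500 calls) to 14.8% ± 2.25 in DSE-treated mice (549.5 calls). The window at chr1:45429501-45430500 went the other way, from 77.7% ± 8.74 to 68.6% ± 7.91. The part of each in the gain was not tested. The share of the gene's calls that lay in its 2 windows with at least 50% methylation was 18.6% to 23% in saline-treated, 19.0% to 19.7% in OVA-induced and 27.2% to 32.5% in DSE-treated mice, and with windows weighted equally the mean was 40.6% ± 3.66 in OVA-induced mice and 42.6% ± 2.81 in DSE-treated mice and the call was lost.

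A similar shift touched promoters. Col25a1, a transmembrane collagen of nerve, was the only one of 29 promoters higher in DSE-treated than OVA-induced mice by limma and 0 were lower, against 22.9% and 0.475% of all genes, and at an unadjusted p under 0.05 it was 5 and 0. Its levels were 10.4%, 11.6% and 10.9% in saline-treated, 9.41%, 13.7% and 9.55% in OVA-induced and 15.3%, 15%, 13.8% and 15.9% in DSE-treated mice, a log2 gain of 0.55 ± 0.15 (adjusted p = 0.0185 by limma). The share of its calls in the 1 window with at least 50% methylation was 5.13% to 6.92% in OVA-induced and 8.32% to 9.75% in DSE-treated mice, and the call was lost without OVA-induced mouse 1 (0.45) or 3 (0.46). With promoters of 500 bp each side the log2 gain was 0.17 (adjusted p = 0.553 by limma). Without OVA-induced mouse 1 none of the promoters passed, and without OVA-induced mouse 2 or DSE-treated mouse 1 or 4 it was 2. With windows weighted equally, 0 of 29 collagen promoters and 2.03% of all genes were higher by limma.

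The third comparison, of DSE-treated with saline-treated mice, uses the same saline-treated mice as the first, so that the pair are not independent. In DSE-treated mice 45 of 1032 collagen windows were hypermethylated and 22 hypomethylated (4.36% and 2.13%), in 25 and 13 regions of 21 genes, against 4.95% and 3.07% of all windows. In 57 of the 67, and in 84.2% of all DMRs, no mouse of one group reached the level of the other. By limma 20 collagen windows were higher and 15 lower, and 4.31% of all windows differed in either direction. Basement membrane genes had 19 higher and 11 lower of 248, fibrillar genes 2 and 6 of 219 and the others 24 and 5 of 565.

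Col4a1 and Col4a2 again held a large share of the gains, with 15 of 66 windows hypermethylated by 11.5 to 26.1 percentage points and 0 hypomethylated, against 30 of 966 other collagen windows (3.11%). Many of the 15 overlap too, and limma called 10 windows higher in the whole basement membrane class. The Col4a1 window at chr8:11308001-11309000 (1367 to 1952 calls) was at 31.0%, 25.4% and 29.5% in saline-treated, 39.8%, 51.0% and 46.1% in OVA-induced and 45.6%, 48.2%, 46.0% and 51.2% in DSE-treated mice. Saline-treated mice were lowest without overlap, and the pooled gain in DSE-treated mice was 18.8 percentage points (adjusted p = 0.0134 by limma). For intron 3 of Col4a2 the gain was 23.5 percentage points (adjusted p = 0.0323 by limma).

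Beyond type IV, a window 4724 bp upstream of Col1a1, the main chain of type I collagen (chr11:94930501-94931500), was at 48.8%, 51.9% and 45.6% in saline-treated, 61.1%, 59.2% and 53.5% in OVA-induced and 59.6%, 55.1%, 72.3% and 75.2% in DSE-treated mice. DSE-treated mice were above saline-treated mice by 16.7 percentage points, with a wide spread among themselves (adjusted p = 0.0741 by limma). A window 274 bp upstream of Col22a1 (chr15:72034501-72035500, 37 to 87 calls) differed by 15.3 percentage points, and its call was lost without DSE-treated mouse 4 (11.3) or saline-treated mouse 1 (12.3).

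The losses were largest in Col15a1. Its downstream window fell by 21.1 percentage points (adjusted p = 0.0193 by limma), exon 34 by 16.8 (adjusted p = 0.017 by limma) and exon 40 (chr4:47311501-47312500) by 12.7. In exon 40 the levels were 85.8%, 86.6% and 86.5% in saline-treated, 79.8%, 79.6% and 76.7% in OVA-induced and 73.3%, 72.8%, 73.3% and 74.8% in DSE-treated mice (adjusted p = 0.00967 by limma against saline-treated mice). All 3 groups stood apart there, although the 5.20 percentage points between OVA-induced and DSE-treated mice did not reach the size of a DMR. Col28a1 intron 25 fell by 18.0 percentage points (adjusted p = 0.0177 by limma) and Col5a1 intron 37 by 15.2 (adjusted p = 0.0133 by limma).

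In promoters, 9 of 29 collagen genes rose and 0 fell in DSE-treated against saline-treated mice, where 24.3% of all genes rose and 2.29% fell by limma. At an unadjusted p under 0.05, 15 rose and 0 fell, and without saline-treated mouse 1 (5), saline-treated mouse 2 (4) or DSE-treated mouse 2 (4) fewer rose. The shared promoter of Col4a1 and Col4a2 gained 0.80 ± 0.16 (adjusted p = 0.00645 by limma) and Col7a1 0.74 ± 0.11 (adjusted p = 0.00194 by limma) on the log2 scale. Col1a2 was at 15.3%, 14.3% and 13.7% in saline-treated, 15.4%, 16.1% and 19.8% in OVA-induced and 20.2%, 19.3%, 18.6% and 19.0% in DSE-treated mice. DSE-treated and saline-treated mice did not overlap, and the log2 gain of 0.50 ± 0.12 (adjusted p = 0.0125 by limma) kept its call under every alternative tried. OVA-induced mice overlapped with the DSE-treated mice and did not pass against either group, although with windows weighted equally Col1a2 passed in OVA-induced against saline-treated mice. Col18a1 (0.34 ± 0.10), Col27a1 (0.52 ± 0.14), Col9a3 (0.32 ± 0.10), Col25a1 (0.51 ± 0.15) and Col5a3 (0.35 ± 0.12) also passed, and each of these 5 lost its call without some mouse. With windows weighted equally 4 promoters passed, Col18a1, Col1a2, Col7a1 and Col9a3, against 13.2% of all genes.

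For gene bodies, 5 of 39 rose and 1 fell, against 15.7% and 6.37% of all genes, and without saline-treated mouse 2 or 3 or any 1 DSE-treated mouse it was 3 that rose. Col4a1 gained 0.62 ± 0.10 (adjusted p = 0.00523 by limma), Col9a3 0.48 ± 0.11 (adjusted p = 0.0158 by limma) and Col5a2 0.72 ± 0.11 (adjusted p = 0.00449 by limma), the last with the shift in calls described above. Col26a1, an emilin-related collagen, and Col8a2, which is outside the naming rule and given because its value was seen, gained 0.27 ± 0.08 and 0.24 ± 0.07, with adjusted p-values by limma of 0.0493 and 0.0392. Both calls were lost on leaving out saline-treated mouse 2 (0.23 and 0.19) or any 1 of the DSE-treated mice. Col5a1 fell by 0.18 ± 0.06 (adjusted p = 0.0473 by limma), from 66.3%, 67.0% and 64.5% to 62.6%, 63.6%, 62.8% and 63.1%, and this call was lost in 12 alternatives, among them leaving out saline-treated mouse 1 or 2 or any 1 DSE-treated mouse.

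The study sought windows that differed in OVA-induced mice and went back in DSE-treated mice. Among the 111 collagen windows called in any comparison, 5 were called in OVA vs saline and with the opposite sign in DSE vs OVA. The share of such windows over the whole table is not given here, so the count of 5 is a description and no result about collagen genes. Both calls use the same OVA-induced mice, so the values are given side by side. In Col4a3, the α3 chain of the type IV network of alveolar and kidney basement membrane, intron 1 (chr1:82625501-82626500) was at 66.0%, 54.6% and 63.2% in saline-treated, 70.3%, 80.4% and 69.4% in OVA-induced and 61.5%, 63.0%, 56.5% and 68.0% in DSE-treated mice. OVA-induced mice were highest without overlap, by 11.6 percentage points against saline-treated and 10.8 against DSE-treated mice. Neither call held on leaving out OVA-induced mouse 2 (8.31 and −7.55), and the adjusted p by limma was 0.133 and 0.355.

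In Col1a1, over exons 20 to 23 (chr11:94942501-94943500), the levels were 44.2%, 43.0% and 36.7% in saline-treated, 22.7%, 35.4% and 29.4% in OVA-induced and 41.8%, 35.2%, 45.3% and 35.7% in DSE-treated mice. OVA-induced mice were below all saline-treated mice, by 12.2 percentage points, but overlapped with DSE-treated mice, and without OVA-induced mouse 1 both calls were lost (−8.53 and 6.77). A pair of windows over exon 40 of Col15a1 (chr4:47312001-47313000 and chr4:47312501-47313500) held identical calls and count once, with 68.9% ± 8.37 in saline-treated, 80.7% ± 2.21 in OVA-induced mice and 68.2% ± 14.0 in DSE-treated mice. Both Col15a1 calls were lost without OVA-induced mouse 1 (10.4 and −12.4), and the differences were smallest without saline-treated mouse 2 (7.09) and DSE-treated mouse 4 (−9.90). The last window, in Col4a1 intron 2 (chr8:11253501-11254500, 28 to 63 calls), was at 54.9% ± 12.2, 35.6% ± 12.9 and 61.9% ± 19.5, and both of its calls were lost without OVA-induced mouse 3 (−12.8 and 17.8). Each of the 5 windows lost at least 1 call without some mouse of another group too, and limma called 0 of them in either comparison.

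Genes that act on collagen chains were read from lists chosen by function. Of 27 promoters measured among 29 genes of collagen processing and cross-linking, 2 rose in OVA-induced against saline-treated mice and 0 fell, where 3.26% and 2.76% of all promoters did: Serpinh1, the collagen chaperone, and Pcolce, which enhances removal of the C-propeptide. In DSE-treated mice 8 of the 27 rose against OVA-induced and 9 against saline-treated mice, among them the hydroxylase gene Plod1, shares that stand beside 22.9% and 24.3% of all genes, and the lysyl oxidase gene Lox rose against saline-treated mice. Of 14 promoters measured among 20 collagen receptors and proteases, 1 rose in OVA-induced mice, Mmp14, a membrane-bound collagenase, and its gene body rose too. In gene bodies of these 20 genes (15 measured), Timp3, an inhibitor of metalloproteinases, rose as well, whereas Mmp2, a gelatinase, and Lair1, a collagen receptor of leukocytes, fell in OVA-induced mice. These 2 of 15 gene bodies in each direction stand beside 10.7% of all gene bodies that rose and 4.3% that fell.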

How the data were processed

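Per the labels and the study's methods, DNA of lung tissue was captured with SureSelect Methyl-seq, bisulfite sequenced, trimmed, mapped to mm10 with Bismark and tiled with methylKit into windows. Versions differ between sources: the submitters' processing notes name cutadapt 1.10, Bismark 0.19.0 and methylKit 1.0.0, and the methods Cutadapt 1.13, Bismark 0.17.0 and methylKit 1.6.0. The deposited table holds counts of methylated and unmethylated cytosine calls per window and mouse, not normalized. Percentages were 100 × methylated calls over all calls in windows with at least 20 calls in the mouse. Windows were tested by a likelihood-ratio test of a logistic model with Benjamini-Hochberg adjustment over the table. Genes were tested with limma 3.58.1 (R 4.3.3) on log2((methylated + 1)/(unmethylated + 1)) of calls summed over promoter (within 1000 bp of a curated RefSeq start site) or remaining gene body windows, in all 10 mice, adjusted over all genes. Exact permutation tests were two-sided (scipy 1.17.1). Class levels are means over windows, then genes, then mice, with SD. Binomial precision of a window in 1 mouse (95% Wilson interval) covers counting error only. Scripts were tested on simulated data. Members, lists and tests were chosen with earlier results of these data known. Named were the main fibrillar, basement membrane and type VI genes, the 5 lowest and 5 highest promoters, the 8 genes with the largest limma difference among those called, the 5 largest called regions per comparison and direction whose mice did not overlap, and windows called with opposite signs. Others named were chosen after their values were seen.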

Additional observations from a re-analysis of the deposited data

Results flagged for a closer look

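A gap test (Dixon) was run in the DSE-treated group, the one with 4 mice, for 91 sets of values (named windows, promoters and gene bodies of the collagen genes), and in 5 of them 1 mouse stood far from the other 3, where chance flags about 1 in 20 groups. In the Col22a1 window of exon 17 (chr15:71944001-71945000), DSE-treated mouse 1 was at 33.3% and the others at 41.3% to 41.6%, a gap of 0.958 of the range. In the Col5a3 promoter, DSE-treated mouse 2 was at 7.67% against 6.22% to 6.47% (0.831 of the range). The Col6a1 gene body was at 74.2% in DSE-treated mouse 4 and 87.7% to 89.0% in the others (0.91), and the Col8a2 gene body at 46.8% in the same mouse against 43.0% to 43.3% (0.931). In the Col9a1 gene body, DSE-treated mouse 1 was at 44.5% and the others at 48.3% to 48.8% (0.873).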

How the results depend on the processing

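The collagen window counts depended most on how the spread between mice entered the test. An F test with a term for overdispersion called 0 windows in any comparison or direction, as it did over the whole table, while at an unadjusted p under 0.05 and 10 percentage points it had 43 higher and 18 lower windows in OVA vs saline, then 4 and 2 in DSE vs OVA and 36 and 20 in DSE vs saline. Limma on the mice of the 2 groups called 0 and 0, 0 and 0, and 18 and 14 in that order (56 and 23, 7 and 5, 41 and 24 at an unadjusted p under 0.05), and limma over all 10 mice, an alternative chosen after seeing the data, called 16 and 12, 0 and 0, and 20 and 15 (51 and 22, 7 and 5, 43 and 24 unadjusted). A difference of at least 20 percentage points left 3 higher and 2 lower windows in OVA vs saline, then 1 and 0 in DSE vs OVA and 3 and 1 in DSE vs saline. Windows that do not overlap gave 27 and 10, 3 and 2, and 20 and 8. In DSE vs OVA, a minimum of 50 calls left 3 higher windows and scaling all mice to the deepest gave 10 lower ones. Leaving out 1 mouse gave 46 to 72 higher and 18 to 23 lower windows in OVA vs saline, 3 to 7 and 4 to 10 in DSE vs OVA and 41 to 60 and 16 to 21 in DSE vs saline. The DSE vs OVA counts moved by over 1.5 times, to 3 higher without DSE-treated mouse 3 or OVA-induced mouse 1 and to 10 lower without DSE-treated mouse 2 or OVA-induced mouse 2.

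For promoters by limma, leaving out 1 mouse gave 0 to 3 collagen genes higher and 0 to 1 lower in OVA vs saline, 0 to 2 higher in DSE vs OVA and 4 to 7 higher in DSE vs saline. The 4 higher promoters of OVA vs saline became 0 without OVA-induced mouse 2 or 3, 1 without saline-treated mouse 2 or 3 and 2 without OVA-induced mouse 1, and 1 promoter was lower without saline-treated mouse 1. The 9 of DSE vs saline became 4 without saline-treated mouse 2 or DSE-treated mouse 2 and 5 without saline-treated mouse 1. With the mice of the 2 groups fitted alone, 1 promoter was higher in OVA vs saline and 2 promoters were higher in DSE vs OVA. Promoters of 500 bp each side and windows that do not overlap each gave 2 in OVA vs saline, and windows weighted equally gave 0 in DSE vs OVA and 4 in DSE vs saline. For gene bodies, leaving out 1 mouse gave 1 to 3 higher in OVA vs saline (1 without saline-treated mouse 2 or 3 or OVA-induced mouse 2 or 3) and, in DSE vs saline, 3 to 4 higher and 0 to 1 lower. The mice of the 2 groups alone gave 1 higher gene body in OVA vs saline and 1 lower in DSE vs OVA, and windows weighted equally gave 0 higher in the latter. The 1 lower gene body of DSE vs saline (Col5a1) became 0 with a pseudocount of 5, with windows weighted equally, with the mice of the 2 groups alone and with either other promoter definition. The cause of these changes was not tested, except that fewer windows are tested without overlap and fewer mice enter the fits of 2 groups. None of the single collagen genes or windows named in the report reversed its sign under the alternatives run.

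Deviations of same-numbered mice from their group means had weak correlations of −0.03 to 0.04 (saline and OVA), −0.03 to 0.006 (saline and DSE) and −0.03 to 0.10 (OVA and DSE). Mice of other numbers had −0.08 to 0.06. Whether same-numbered mice were handled together was not tested. With the replicate number as a block, DSE vs OVA had 3 higher collagen windows, 2 promoters were higher in that comparison and 1 in OVA vs saline, and gene bodies had 1 higher in OVA vs saline, 0 higher in DSE vs OVA, and 3 higher and 0 lower in DSE vs saline.

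Saline promoter levels of the classes kept their order, fibrillar below basement membrane below other, in every setting but one. Pooled calls gave 4.49%, 10.0% and 13.6%, promoters of 500 bp each side 4.27%, 12.2% and 15.7%, and 2000 bp upstream to 500 bp downstream 7.07%, 16.1% and 23.7%. A minimum of 50 calls gave 17.4% for the others, and type IV alone, at 3.92%, was below the fibrillar mean. For gene bodies, pooled calls gave 39.6% for fibrillar and 57.5% for basement membrane genes, a minimum of 50 calls 41.4% for fibrillar and 52.5% for other genes, the other promoter definitions 56.3% and 56.2% for basement membrane genes, and type IV alone 52.1%. Leaving out 1 mouse moved no class mean by more than its SD. Windows with few calls limit precision. Among windows that met the naming rule, the widest Wilson half-width in 1 mouse was 17.3 percentage points, in Col4a1 intron 2 (chr8:11253501-11254500). It was 1.80 in a Col4a1 intron 1 window of 2603 to 3685 calls, which was named outside that rule.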
